A study of Mus musculus with 6 samples.

Results

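Caspases are proteases that cut their targets after aspartate. Their mRNAs were measured here in wasting leg muscle of mice that carried C26 tumors. The caspase genes described are 7 of the 21212 probe sets of the array table: the inflammatory members Casp1 and Casp4, the apoptotic members Casp2, Casp6, Casp8 and Casp9, and Casp12. They were chosen by name, and each had 1 probe set of its own. Both groups were male CDF1 mice, 8 weeks old at the start. C26 mice received C26 adenocarcinoma cells in PBS/matrigel under the skin of both flanks, control mice received PBS/matrigel only, and gastrocnemius and plantaris muscles were taken 25 days later. Each pool joined the RNA of 2 to 3 muscles, and 3 pools from 3 control mice (replicates 1, 2 and 3) and 3 pools from 4 C26 mice (replicates 1, 3 and 4) were each hybridized to 1 whole-transcript array. The muscles behind each pool are not named in the sources, so 1 mouse may stand in several pools of its group, and p-values cover the spread between pools alone.

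Inflammatory caspases act in inflammasomes, protein platforms on which caspase-1 matures interleukin-1β, and the product of mouse Casp4, long known as Casp11, senses bacterial lipopolysaccharide inside the cell and cuts gasdermin D, which opens pores in the membrane. Apoptotic caspases form a cascade in which initiators such as caspase-8 at death receptors and caspase-9 on the apoptosome switch on the executioners that take the cell apart. In wasting muscle, caspases have been studied as enzymes that free proteins from the contractile filaments for the proteasome, and muscle nuclei can survive their activity. All of these enzymes are made as inactive zymogens, so an mRNA level is not an activity.

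The 3 genes Casp1, Casp4 and Casp12 are consecutive protein-coding genes on chromosome 9 of the mouse, whereas the apoptotic members are scattered over chromosomes 1, 3, 4 and 6. The 250 bases before the first annotated start of each of the 3 neighbours are shown because these genes lie side by side and 1 of them, Casp4, passed the test of change (RefSeq, GRCm38.p6, plus strand, 5′ to 3′). The regions are chr9:5298267-5298516 for Casp1, chr9:5308599-5308848 for Casp4 and chr9:5345226-5345475 for Casp12. Capitals mark matches to any of 5 motifs.

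Casp1: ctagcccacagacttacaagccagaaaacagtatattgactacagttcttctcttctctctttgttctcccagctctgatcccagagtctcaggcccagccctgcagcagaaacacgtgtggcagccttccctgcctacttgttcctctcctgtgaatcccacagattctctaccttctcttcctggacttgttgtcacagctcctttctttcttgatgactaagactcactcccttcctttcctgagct
Casp4: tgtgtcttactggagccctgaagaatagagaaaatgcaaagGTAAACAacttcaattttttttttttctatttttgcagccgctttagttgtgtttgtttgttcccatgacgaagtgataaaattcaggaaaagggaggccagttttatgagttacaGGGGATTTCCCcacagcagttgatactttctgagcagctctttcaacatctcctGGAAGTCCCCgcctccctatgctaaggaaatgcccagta
Casp12: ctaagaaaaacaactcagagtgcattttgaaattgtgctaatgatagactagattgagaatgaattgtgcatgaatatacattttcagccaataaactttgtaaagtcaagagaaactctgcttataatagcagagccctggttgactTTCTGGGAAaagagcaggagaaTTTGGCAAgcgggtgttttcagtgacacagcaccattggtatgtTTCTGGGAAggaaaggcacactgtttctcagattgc

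The motifs, searched on both strands of windows from 250 bases before to 50 bases after each start, were the NF-kB consensus, TTCNNNGAA (STAT), the IRF consensus, TTGCNNAA (C/EBP) and GTAAACA (FoxO). The Casp4 window held 3 NF-kB matches, of which GGGGATTTCC and GGGATTTCCC overlap each other between −93 and −83 from the start and GGAAGTCCCC lies between −39 and −30. It also held the FoxO letters between −209 and −203. A second annotated start of Casp4 gave the same matches. The NF-kB consensus was found in 8.46% of all 32851 promoter windows and the FoxO letters in 3.65%. The Casp12 window held TTCTGGGAA, a STAT match, at 2 places and 1 C/EBP match, TTTGGCAA. STAT letters were found in 8.3% of all windows and C/EBP letters in 10.8%. The windows of Casp1, Casp2, Casp6, Casp8 and Casp9 held none of these letters. A match is a description of the letters and not a binding site. The study sequenced DNA bound by p65, an NF-kB subunit, in control and C26 muscle. Of its upregulated genes it named only Fbxo6 as having a peak in C26 but not in control muscle. It also saw no significant change in protein binding to NF-kB letters in a gel, or in an NF-kB reporter. From its experiments together the study proposes that p65 and c-Rel, another NF-kB subunit, do not drive these expression changes. Whether NF-kB acts on Casp4 was not tested here.

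Of the 7 caspase genes 1 rose in muscle from C26 mice, Casp4, and the other 6 did not pass the test. The words rose and fell are used where limma, a linear model fitted over all 21212 probe sets, gave a Benjamini-Hochberg adjusted p no higher than 0.05 and the change reached 1.5-fold, which is 0.58 on the log2 scale. At this rule 10.9% of all probe sets were called, 5.94% as higher and 4.95% as lower. By the adjusted p alone 1 of the 7 members passed, against 30.1% of all probe sets. The median log2 change was 0.09 over the 7 members and −0.05 over all probe sets. All values are the authors' RMA values on the log2 scale. A background level of 3.81 was taken from receptor genes of smell, most of which should be silent in muscle. Of the 7 members 6 lay above it.

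**Figure D1:**
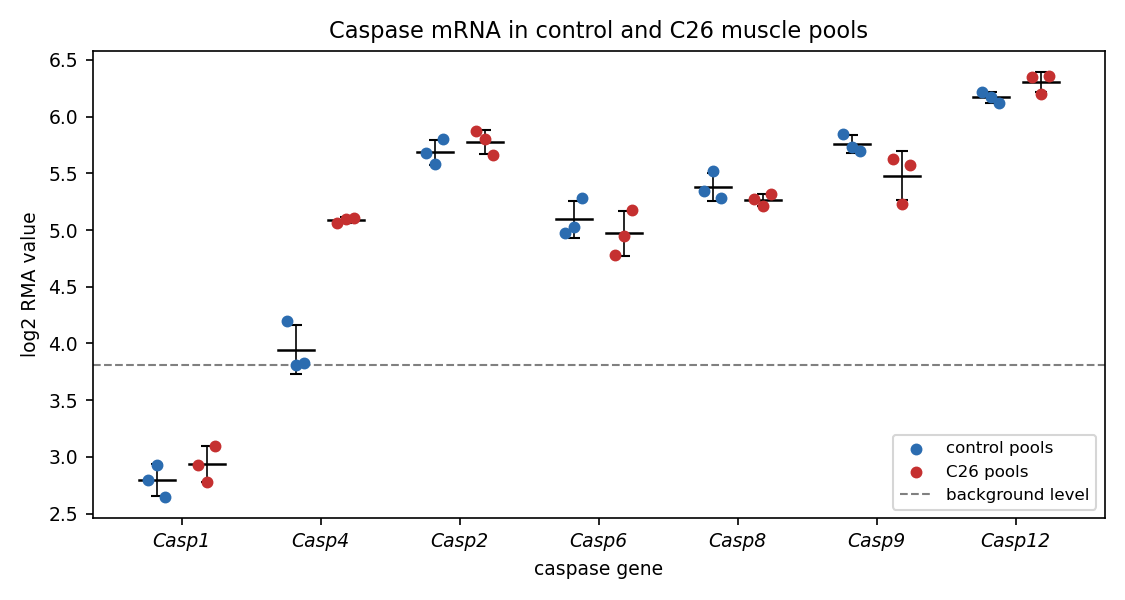
Caspase mRNA (log2 RMA value, vertical axis) of the 7 genes by pool, with 3 control pools in blue, 3 C26 pools in red, the mean as a black line, the SD as error bars and the background level of 3.81 dashed. The C26 pools of Casp4 sit between 5.06 and 5.11, above all control pools, while every pool of Casp1 sits under the background level.

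Casp4 had log2 values of 4.20, 3.81 and 3.83 in control replicates 1, 2 and 3 and of 5.06, 5.10 and 5.11 in C26 replicates 1, 3 and 4. Every C26 pool was higher than every control pool, with a gap of 0.86 between the nearest pools. The mean rose from 3.95 ± 0.22 to 5.09 ± 0.03 (SD, n = 3 pools each), a log2 change of 1.14 (SE 0.11, adjusted p = 0.000126 from limma). This corresponds to 2.21-fold, with a 95% interval of 1.86 to 2.63. The control level lay just above the background level, and control pools 2 and 3 were nearly at it, so that the change can be understated. Of all probe sets 1.4% had a larger rise. The study names Casp4 among its atrophy genes from these same samples, so its rise is no independent finding. When the variances of the groups were taken as unequal, the adjusted p of Casp4 was 0.0682.

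Casp1, which encodes the enzyme that matures interleukin-1β, had log2 values of 2.80, 2.93 and 2.65 in the control pools and of 2.93, 2.78 and 3.10 in the C26 pools. The groups overlapped, and all 6 values lay under the background level. The log2 change of Casp1 was 0.14 (SE 0.11, 95% interval −0.11 to 0.39, adjusted p = 0.381 from limma). A change of Casp1 could therefore hardly be seen on these arrays.

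Casp12, a gene whose product has been linked to the endoplasmic reticulum and to the damping of inflammasomes, had log2 values of 6.22, 6.17 and 6.12 in the control pools and of 6.35, 6.20 and 6.36 in the C26 pools. C26 replicates 1 and 4 lay above all control pools, whereas replicate 3 lay among them. The log2 change was 0.14 (SE 0.08, 95% interval −0.05 to 0.32, adjusted p = 0.246 from limma). Casp12 was thus well above the background level in all 6 pools and did not pass, although it is the next gene after Casp4.

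Among the apoptotic members 0 of 4 passed by limma or by the methods' t-test, and 1 of 4, Casp9, had an unadjusted limma p of at most 0.05, against 39.9% of all probe sets. Casp9, the initiator on the apoptosome, had log2 values of 5.85, 5.73 and 5.70 in the control pools and of 5.63, 5.23 and 5.57 in the C26 pools. All C26 pools were lower than all control pools, by a gap of 0.07. The log2 change of Casp9 was −0.28 (SE 0.11, 95% interval −0.54 to −0.03, adjusted p = 0.0951 from limma). Without C26 replicate 3, the lowest pool, the change of Casp9 was −0.16. Pools of the groups did not overlap for 2 of the 7 members, Casp4 and Casp9, against 43.9% of all probe sets.

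Casp8, the initiator at death receptors, had log2 values of 5.34, 5.52 and 5.28 in the control pools and of 5.27, 5.21 and 5.32 in the C26 pools. Casp6, an executioner that cuts nuclear lamins, had 4.97, 5.03 and 5.28 in the control pools and 4.78, 4.95 and 5.18 in the C26 pools. Casp2, the initiator of the PIDDosome, had 5.68, 5.58 and 5.80 in the control pools and 5.87, 5.80 and 5.66 in the C26 pools. The groups overlapped for all of these genes. The log2 change of Casp8 was −0.12 (95% interval −0.31 to 0.08), that of Casp6 was −0.12 (−0.41 to 0.16) and that of Casp2 was 0.09 (−0.12 to 0.30), with adjusted p-values from limma of 0.364, 0.513 and 0.529. With 1 array left out in turn the change lay between −0.17 and −0.05 for Casp8, between −0.23 and −0.03 for Casp6 and between 0.04 and 0.15 for Casp2. The value of Casp8 was nearest to 0 without control replicate 2, that of Casp6 without control replicate 3 or C26 replicate 1 and that of Casp2 without control replicate 2. For all 6 members that did not pass, the 95% interval, which is not adjusted for the number of genes, stayed within a 1.5-fold change in either direction. For Casp1 this says little, because its level was under the background. The small Casp14, a caspase of the epidermis, also lay under the background level in all 6 pools (log2 change −0.17, adjusted p = 0.23 from limma).

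**Figure D2:**
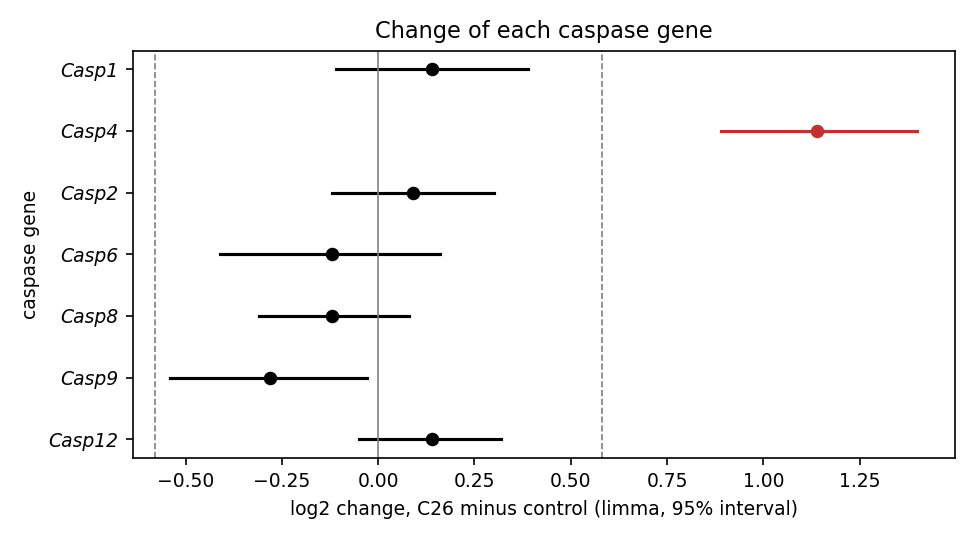
Log2 change of each caspase gene (horizontal axis, C26 minus control) as a point with its 95% interval from limma, and dashed lines at a 1.5-fold change. The interval of Casp4 (0.89 to 1.40, red) lies beyond the 1.5-fold line, and those of the other 6 genes lie between the lines.

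The inflammatory members were compared with the apoptotic ones within each pool. The mean log2 value of Casp1 and Casp4 minus that of the 4 apoptotic genes was −1.96, −2.09 and −2.28 in the control pools and −1.39, −1.36 and −1.33 in the C26 pools. The difference between groups was 0.75, from −2.11 ± 0.16 to −1.36 ± 0.03 (SD, n = 3 pools each). Because Casp1 lay under the background level in every pool, this value is a description of the probe sets and its size cannot be read as that of the inflammatory genes. It was made of a mean change of 0.64 over the inflammatory and −0.11 over the apoptotic members, and most of the former came from Casp4 alone. The change of Casp4 exceeded that of Casp9 by 1.43, of Casp6 by 1.27, of Casp8 by 1.26, of Casp2 by 1.06 and of Casp12 by 1.01 on the log2 scale, and for each of these pairs the C26 pools lay above all control pools. Differences between Casp1 and the other members are not given, because Casp1 lay under the background level. With 3 pools against 3 the exact two-sided permutation test cannot give a p under 0.1, which is the value of each of these pairs with Casp4. Adjusted over the 11 pairs compared, those with Casp1 included, this permutation p was 0.138. The pairs of Casp1 with Casp8 and with Casp9 had the same values, although Casp1 lay under the background level. All pairs with Casp4 share the values of that gene and are not separate results.

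The genes whose pattern was most like that of Casp4 over the 6 pools were Zfp874b, Ccdc174, Musk, Il13ra1 and Adcy2. Likeness was the root mean square difference of the log2 deviations from each gene's own control mean, and it lay between 0.085 and 0.099 for these 5 genes. Casp4 deviated from its control mean by 0.25, −0.13 and −0.12 in the control pools and by 1.11, 1.16 and 1.16 in the C26 pools. Musk, the gene of the kinase that organizes the neuromuscular junction, deviated by 0.23, −0.01 and −0.22 in the control pools and by 0.96, 1.11 and 1.14 in the C26 pools. Il13ra1, a receptor chain for interleukin-13, deviated by 0.09, −0.03 and −0.06 and by 1.01, 1.12 and 1.14. The log2 changes of all 5 genes lay between 1.07 and 1.24, so that the likeness rests mainly on the size of the rise.

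Some neutrophil and macrophage markers rose beside Casp4, while lymphocyte markers did not pass. Of 12 neutrophil markers 7 rose and 0 fell (58.3%, against 10.9% of all probe sets called), with a median log2 change of 1.19. Their mean log2 value lay between 3.32 and 3.41 in control and between 4.31 and 4.54 in C26 pools. Among the 7, Ngp lay under the background level in both group means (2.37 and 3.51). The control means of Cxcr2, Retnlg and Mmp8 also lay under it (2.46, 3.47 and 2.53). The list mean thus rests largely on values near or under the background, and its size cannot be read closely. S100a8, a subunit of calprotectin, rose by at least 2.09, since its control level was under the background, and Csf3r, the receptor of granulocyte colony-stimulating factor, rose by 1.55. The neutrophil granule genes Mpo and Camp lay at the background level or under it in group means (log2 changes −0.09 and 0.02). Of 15 macrophage markers 6 rose and 0 fell (40.0%), with a median of 0.53. Their mean log2 value lay between 5.26 and 5.43 in control and between 5.81 and 5.87 in C26 pools. Itgam, an integrin chain of macrophages and neutrophils, rose by 1.71 and Cd163, a hemoglobin scavenger receptor, by 1.28, whereas Adgre1, the F4/80 gene, had 0.00 and Csf1r, the receptor of macrophage colony-stimulating factor, had 0.02. Ptprc, the CD45 gene of all white blood cells, had a log2 change of 0.53, which is under 1.5-fold, and it passed without control replicate 3, with median centring and with quantile normalization. The part of these cells in the rise of Casp4 was not tested, and in such bulk samples more cells of a type and more RNA per cell cannot be told apart.

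Of 7 lymphocyte markers all failed to pass (median −0.14), and 2 of them lay above the background level. Of 7 endothelial markers 1 rose and 1 fell (28.6%, against 10.9% of all probe sets called, median 0.16). These were Vwf with 0.69 and Kdr with −1.21. Vwf did not pass without C26 replicate 1 or by the methods' t-test. Of 7 fibroblast markers 0 rose and 3 fell (42.9%, against the same 10.9%, median −0.46), led by Col1a1 with −2.61. Of 12 skeletal muscle markers 0 rose and 1 fell (8.33%, against the same 10.9%, median −0.08), Mylpf with −0.70. Mean levels of this list were 12.00 to 12.06 in control and 11.87 to 11.92 in C26 pools, so that muscle genes were bright in all 6 pools.

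**Figure D3:**
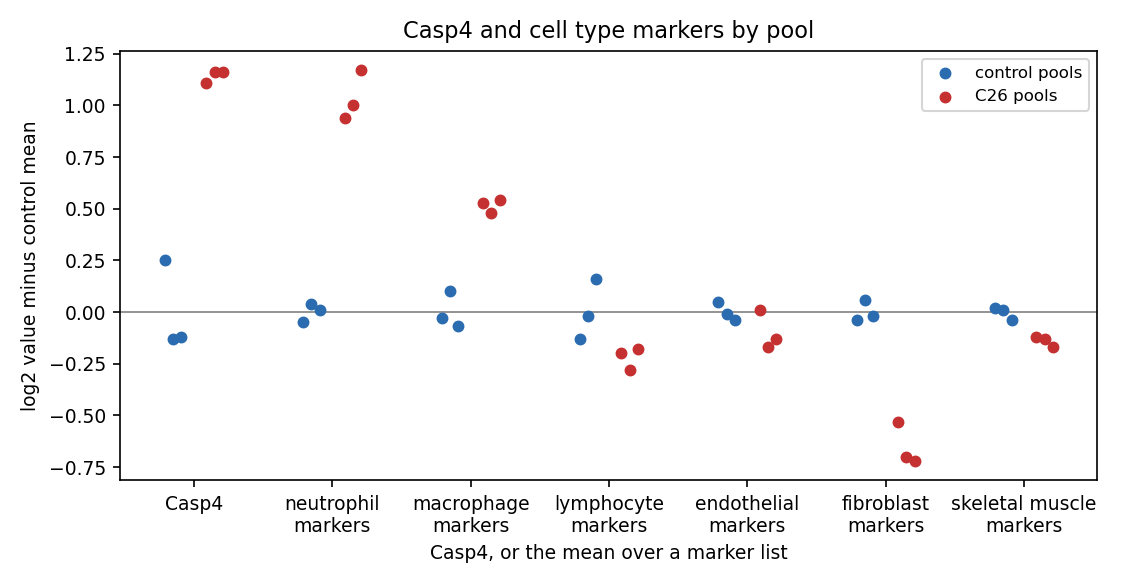
Log2 value minus the control mean (vertical axis) of Casp4 and of the mean over each marker list by pool (control in blue, C26 in red, 3 pools each). The C26 pools lie at 1.11 to 1.16 for Casp4, at 0.94 to 1.17 for neutrophil markers and at 0.48 to 0.54 for macrophage markers. Those of skeletal muscle markers lie between −0.17 and −0.12. The control level of the neutrophil list lies under the background level.

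The partners of the inflammatory caspases changed in part. Of 19 genes of inflammasomes and pyroptosis 5 rose and 0 fell (26.3%, against 10.9% of all probe sets called, median log2 change 0.05). Tlr4, the lipopolysaccharide receptor gene, had log2 values of 4.37, 4.60 and 4.32 in the control pools and of 5.31, 5.66 and 5.37 in the C26 pools, a rise of 1.02 (SE 0.12, adjusted p = 0.000322 from limma). Its co-receptor gene Cd14 rose by 0.83, the cytokine gene Il33 by 0.97 and Nek7, a kinase that binds NLRP3, by 0.60. Il1b, the interleukin-1β gene, rose by at least 0.88, since its control level was under the background. The sensor genes Nlrp3 (2.89 and 2.88), Nlrc4 (2.76 and 2.72) and Aim2 (2.75 and 2.71) had mean log2 values under the background level in control and C26 muscle. Gsdmd, the gasdermin D gene that caspase-11 acts on, lay above it and had a log2 change of −0.03, and Pycard, the adaptor gene, had −0.01. Nek7 did not pass without control replicate 2, C26 replicate 1 or C26 replicate 3, nor with quantile normalization. By a test with unequal variances 3 of the 19 rose.

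Several interferon-related and guanylate-binding protein genes help caspase-11 to reach lipopolysaccharide. Of 13 measured genes of a wider list, which also holds transcription factor genes, 4 fell, 0 rose and 9 did not pass. This is 30.8% called, against 10.9% of all probe sets, with a median log2 change of −0.26. Among the guanylate-binding genes that did not pass, Gbp2 had a log2 change of 0.03, Gbp6 of −0.28 and Gbp5 of −0.51. The C26 level of Gbp5 was under the background, and it passed as a fall without C26 replicate 1. Gbp4 had log2 values of 7.33, 7.47 and 7.35 in the control pools and of 6.43, 5.99 and 6.12 in the C26 pools, a fall with a log2 change of −1.21 (SE 0.12, adjusted p = 0.000123 from limma). Gbp7 fell by 0.74 and Igtp, an immunity-related GTPase gene, fell by 0.69. Gbp3 fell by at least 0.69, since its C26 level was under the background. Irf1, a transcription factor that interferon induces, had a log2 change of 0.01, and Irf2, which is known to drive Gsdmd, had 0.36 (adjusted p = 0.00871 from limma, under 1.5-fold). Without C26 replicate 4 and by the methods' t-test 2 of these genes fell, Gbp4 and Gbp7, and 0 fell by a test with unequal variances. Gbp3 also did not pass without control replicate 3 or without C26 replicate 3.

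Of 14 death receptor and adaptor genes 0 fell and 1 rose (7.14%, against 10.9% of all probe sets called, median −0.10). This was Tnfrsf1a, the receptor gene for tumor necrosis factor, with log2 values of 7.61, 7.51 and 7.52 in control and of 8.34, 8.25 and 8.40 in C26 pools. Fas had a log2 change of 0.50 and Fadd, the adaptor that recruits caspase-8, had −0.25, with adjusted p-values from limma of 0.00168 and 0.0368, both under 1.5-fold. Cflar, the gene of the caspase-8 decoy c-FLIP, had −0.31 (adjusted p = 0.0997 from limma). Tnfsf10, the ligand TRAIL, had −0.57, and passed as a fall without control replicate 2, without control replicate 3 or without C26 replicate 1.

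Of 14 genes of the apoptosome and of mitochondrial release 0 fell and 3 rose (21.4%, against 10.9% of all probe sets called, median 0.05). They were the survival genes Bcl2l1 (BCL-XL) with 0.94 and Mcl1 with 0.64 and the death gene Bcl2l11 (BIM) with 0.60. Mcl1 did not pass without C26 replicate 3, and Bcl2l11 did not pass without control replicate 1, control replicate 2 or C26 replicate 1. Bcl2l11 also did not pass by the methods' t-test or with the replicate block. By a test with unequal variances 1 of the 3, Mcl1, passed. Apaf1, the scaffold on which caspase-9 is activated, had log2 values of 5.22, 5.11 and 5.36 in control and of 5.36, 5.30 and 5.22 in C26 pools, which overlapped (log2 change 0.06). Cycs, the cytochrome c gene, had −0.44 (adjusted p = 0.0588 from limma), and Endog, a mitochondrial nuclease gene, had −0.56 and passed as a fall without control replicate 2 or without C26 replicate 3.

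Of 9 inhibitor of apoptosis genes, their antagonist included, 0 rose and 1 fell (11.1%, against 10.9% of all probe sets called, median 0.12). This was Xaf1, which encodes an antagonist of XIAP (log2 change −0.90, SE 0.13, adjusted p = 0.00118 from limma). Xiap, the gene of the direct inhibitor of caspase-9, had −0.16 (adjusted p = 0.277 from limma). Of 11 genes whose proteins caspases cut or that act when cells are taken apart, 0 rose and 1 fell (9.09%, median 0.10). This was Dffa, the gene of the inhibitor that caspases remove from the DNA-cutting nuclease, with log2 values of 7.04, 6.92 and 6.74 in control and of 6.30, 6.22 and 6.11 in C26 pools (log2 change −0.69). Dffb, the nuclease gene itself, had 0.33 (adjusted p = 0.0856 from limma). Parp1, a classical caspase substrate, had −0.58 and Xkr8, a scramblase that caspases activate, had −0.54, both just under 1.5-fold. Parp1 passed as a fall without control replicate 2, control replicate 3 or C26 replicate 1 and with quantile normalization, so that 2 genes of the list then fell.

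Of 4 genes of the PIDDosome and p53 pathway, Cdkn1a, the p21 gene, rose by 2.81 (SE 0.17, adjusted p = 1.49e-05 from limma), whereas Pidd1 and Cradd, which build the caspase-2 platform, had 0.08 and 0.33. Of 15 genes of endoplasmic reticulum stress, the setting in which caspase-12 has been studied, 6 rose and 0 fell (40.0%, against 10.9%, median 0.23). Edem1, which sends misfolded proteins to degradation, rose by 1.42, Ern1, the IRE1 stress sensor gene, by 1.23 and Dnajb9, a chaperone gene, by 1.11. Atf4, Xbp1 and Atf6, transcription factor genes of the stress response, rose by 0.92, 0.91 and 0.65. Hspa5, the BiP chaperone gene, had 0.22 and Ddit3, the CHOP gene linked to cell death, had −0.30, and neither passed.

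**Figure D4:**
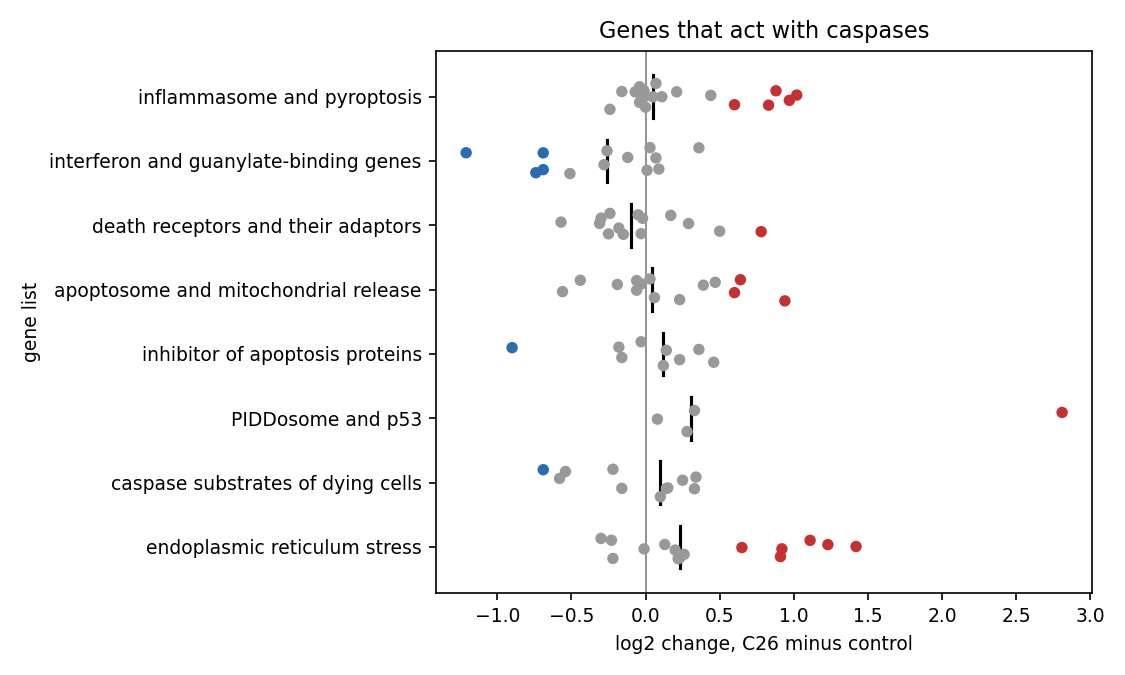
Log2 change (horizontal axis, C26 minus control) of each measured gene in 8 lists of genes that act with caspases, with rises in red, falls in blue, other genes in gray and the median of a list as a black line. Medians lie between −0.26 and 0.30, and the 6 stress genes of the endoplasmic reticulum that rose reach 1.42.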

How the data were processed

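RNA with integrity numbers of at least 8.0 was hybridized to Affymetrix Mouse Gene 1.0 ST arrays. The authors made the deposited log2 values by RMA (background correction, quantile normalization, summary per probe set) with the GenePattern platform, using version 13 of the Brainarray custom CDF. RMA has no sequencing depth, and the number of arrays limits the precision. The sources used here name no genome build for the arrays. Gene symbols came from the platform annotation: 18782 of 21212 had a unique symbol, 6 had several, 4 shared one and 2420 were unnamed. Array medians were 4.93 to 5.02, and Pearson r was 0.994 to 0.996 within groups and 0.976 to 0.981 between them.

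Groups were compared with limma 3.58.1 (two-sided moderated test, 4.52 prior degrees of freedom) in R 4.3.3, Benjamini-Hochberg over all probe sets, and exact permutation tests in Python 3.11.15. Members and lists were chosen with earlier results of these data known. Named were all members, Casp14, the most changed genes of each list, some unchanged partners chosen after their values were seen, and the 5 genes most like Casp4. Of 176 listed genes 9 had no unique probe set and were not analysed here. The background is the 95th percentile over 1274 receptor probe sets. Alternatives were the methods' t-test (equal variances assumed, since the methods do not say), unequal variances, a variance trend, no fold minimum, brighter probe sets, median centring, quantile normalization, a replicate block and leaving out each array. The scripts were tested on simulated data.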

Additional observations from a re-analysis of the deposited data

How the results depend on the processing

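The count of called caspase genes was 1, and it was 0 with unequal variances. It was also 0 when only probe sets brighter than the median were tested, since that setting leaves Casp4 and Casp1 out by their level. Without each array in turn it was 1. The log2 change of Casp4 lay between 1.07 and 1.27 and its adjusted p between 5.02e-05 and 0.0682. The difference between inflammatory and apoptotic members lay between 0.668 and 0.826. Over the partner and marker lists, whose sizes are given above, 30 genes rose and 11 fell, and with unequal variances 21 rose and 5 fell. Over all 21212 probe sets 1261 rose and 1049 fell (5.94% and 4.95%), and with unequal variances 760 rose and 621 fell. With no fold minimum 46 genes of the lists rose and 20 fell, against 3041 and 3344 of all probe sets. Among probe sets brighter than the median 2 inflammasome genes and 0 neutrophil markers rose, the others being left out by their level, and Xaf1 did not pass with unequal variances. The adjusted p of Casp9 lay between 0.047, among brighter probe sets, and 0.295. With the replicate block the change of Casp4 was 1.07 (adjusted p = 0.00263 from limma) and 2 interferon-related genes fell in place of 4. Replicate numbers 1 and 3 are shared by the groups, but the deviations of these arrays correlated at −0.061 and −0.057, so the numbers were not taken to pair the pools. The median change of all probe sets was 0.019 with median centring and −0.009 with quantile normalization, and no caspase gene turned its direction under any setting run.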
